A study of Mus musculus with 12 samples.

Results

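Expression of all genes was compared, library by library, between germinal center (GC) B cells that lack miR-146a (B-KO) and WT GC B cells. The 3 B-KO libraries came from mice with 2 floxed miR-146a alleles (miR-146a fl/fl) and CD21-cre, and the 3 WT libraries came from WT mice. Whether the WT mice carried CD21-cre, and whether a library came from 1 mouse or a pool, is not given in the sources used here. The mice of both groups were C57BL/6 and 8 to 10 weeks old, were immunized with sheep red blood cells (SRBC), and gave splenic B220+PNA+GL7+ cells on day 14. CD21-cre is driven by the promoter of Cr2, a gene of mature B cells, so the deletion precedes the GC. Cr2 is also active in follicular dendritic cells, which the sort for B220 does not target. RNA of genes listed for these cells is described below. The gene of miR-146b was not targeted. The other 6 of the 12 libraries hold B220+ B cells of non-immunized B-KO and WT mice (3 each, called naive here), and they entered the fit and the test of whether the genotype effect differed between cell types. The labels describe total RNA and the study's methods poly-A RNA. The rule took, for each of 24063 gene symbols, the transcript of highest mean RPKM in the 12 libraries, where RPKM is reads per kilobase of transcript per 10000000 reads counted. It kept the 22808 genes whose transcript has at least 200 bases. Of these, 13167 reached 1 RPKM in at least 3 of the 12 libraries and were tested, and 9641 were not. Wherever 3 values are listed for a group, they are its libraries 1, 2 and 3.

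In a GC, B cells divide and mutate their antibody genes in the dark zone and are selected in the light zone by contact with antigen and T cells, largely through CD40 and NFκB. miR-146a is a microRNA that is induced by NFκB and pairs with the mRNAs of signaling proteins such as TRAF6 and IRAK1. Interferons signal through transcription factors that bind response elements of interferon-stimulated genes. Among these genes are the immunity-related and guanylate-binding GTPases, the antiviral effectors, and the machinery that loads peptides on MHC class I.

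The mature miRNA pairs through its seed, bases 2 to 8, which stand in capitals. The sequences (RefSeq, GRCm38.p6) are shown because the deleted miR-146a and the intact miR-146b share this seed.
mmu-miR-146a-5p (chr11:43374435-43374456, minus strand): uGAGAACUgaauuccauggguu
mmu-miR-146b-5p (chr19:46342790-46342811, plus strand): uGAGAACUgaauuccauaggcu

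Sites for this seed were searched in the longest annotated 3′ untranslated region (UTR) of each gene (GENCODE vM21, GRCm38, the same assembly as mm10). The classes were AGTTCTCA (8mer), AGTTCTC (7mer-m8) and GTTCTCA (7mer-A1), read on the mRNA strand. The sites below, with the match in capitals, belong to genes whose RNA levels are given further on. Traf6 holds 4 of the 8mer class and Irak1 holds 2, of which 1 each is printed.
Traf6 (8mer, chr2:101697948-101697977, plus strand): ctctggtgttgAGTTCTCAtttagttgact
Irak1 (8mer, chrX:74015382-74015411, minus strand): tcagaggtcaaAGTTCTCAtgcttggaagt
Chuk (8mer, chr19:44073477-44073506, minus strand): aaaatctgaacAGTTCTCAttctgaaacat
Rel (8mer, chr11:23736991-23737020, minus strand): atttttttttaAGTTCTCAagatactggta
Gimap4 (8mer, chr6:48691722-48691751, plus strand): agatagcatacAGTTCTCAatggacatcag
Mrpl30 (7mer-m8, chr1:37898365-37898393, plus strand): tcacttcgttcAGTTCTCtccctttgtcc
No such match lies in the longest 3′ UTR of Relb or Cd40, which says only that these letters are not there. The study names a potential miR-146a site in the Cd40 3′ UTR. From its luciferase reporter it proposes that CD40 is not a target. Rel-B is taken there as a target known from other immune cells.

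The GC libraries did not group by genotype, and this touches each comparison that follows. On 10902 genes with a mean of at least 5 RPKM, the first principal component (61.2% of the variance) placed B-KO at 6.85, 31.4 and -18.1 and WT at -23.3, -24.2 and 27.3. B-KO replicate 2 lay closest to WT replicate 3 (Pearson r = 0.9883 across genes, 114 genes 2-fold apart), and B-KO replicate 3 to WT replicate 2 (r = 0.9942, 60 genes 2-fold apart). Among the B-KO libraries r was 0.9666 to 0.9762, and WT replicate 3 had r = 0.9644 and 0.9639 with WT replicates 1 and 2. These are descriptions across genes, which are not independent replicates. Immediate early genes separated the same libraries. Fosb, a subunit of the AP-1 transcription factor, was at 41.4, 409 and 1.29 RPKM in B-KO and at 1.92, 1.58 and 327 RPKM in WT. Nr4a1, an orphan nuclear receptor gene induced by antigen receptor signaling, was at 82.3, 1204 and 54.6 RPKM in B-KO and at 62.4, 53.8 and 1309 RPKM in WT. B-KO replicate 2 and WT replicate 3 were thus the highest libraries of both genes. Fos, of the same list, was also high in B-KO replicate 1. It was at 456, 874 and 20.6 RPKM in B-KO and at 21.8, 17.2 and 840 RPKM in WT. Over all immediate early genes tested, the median log2 deviations from the mean of the 6 GC libraries were -0.12, 1.16 and -0.73 in B-KO. In WT they were -0.69, -0.80 and 1.19. Y-linked genes summed to 850, 671 and 0.145 RPKM in B-KO and to 0.337, 0.193 and 1175 RPKM in WT. Xist, the RNA of the inactive X chromosome, was at 0.454, 187 and 1335 RPKM in B-KO and at 1436, 1349 and 0.930 RPKM in WT. Y-linked RNA was therefore high in 2 of 3 B-KO and 1 of 3 WT libraries, the same libraries in which Fos was high. B-KO replicate 2 held both kinds of RNA. The 6 naive libraries had at most 0.248 RPKM of Y-linked RNA. Because this split is uneven between genotypes, results were recomputed with a Y-linked covariate and within each kind of library. The covariate marked each library as with or without Y-linked RNA, whatever the size of its Y-linked sum. B-KO replicate 2 counted as a library with it. Those values stand beside each gene list described at length.

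The deletion itself cannot be read from these libraries. Poly-A RNA, which the study's methods name, does not hold the processed miRNA, while the labels describe total RNA. In either case the reads were too few, as Mir146 had 0, 0 and 1 reads in B-KO and 0, 4 and 0 reads in WT. The genes next to it did not follow the labels in every library. Slu7, a splicing factor gene 0.066 Mb from Mir146, was at 219, 296 and 219.6 RPKM in B-KO and at 166, 522 and 536 RPKM in WT, so that the library labelled WT replicate 1 lay below the B-KO libraries. Pttg1, the securin gene 0.049 Mb away, was at 190.4, 207 and 170.4 RPKM in B-KO and at 168, 296 and 302 RPKM in WT, with the same library lowest. In naive cells Slu7 was at 193, 199 and 192 RPKM in B-KO and at 673, 195 and 204 RPKM in WT, so the high level was seen in 1 of 3 naive and 2 of 3 GC libraries labelled WT. All 6 tested genes within 1 Mb of Mir146 were lower in GC B cells by their log2 fold changes (median -0.43), with 0 at an unadjusted p under 0.05. The library labelled GC WT replicate 1 thus differs from the other GC WT libraries at this locus. Naive WT replicates 2 and 3 likewise lay near the naive B-KO level of Slu7. Whether these libraries carry the same alleles as the other WT libraries was not tested. Every B-KO against WT value that follows takes them as WT. When GC WT replicate 1 was left out, the medians of the GTPase, antiviral and MHC class I lists described further on were 0.59, 0.45 and 0.33. Within 20 Mb the median of 247 tested genes was 0.04.

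GC B cell identity genes were at high level in every library. Bcl6, the repressor gene that defines GC B cells, was at 856, 647 and 826 RPKM in B-KO and 875, 812 and 858 RPKM in WT. The groups overlapped. Markers of other cells were uneven, and not all were low. S100a8, of the macrophage and phagocyte list, was at 8.60, 170 and 203 RPKM in B-KO and at 75.6, 268 and 161 RPKM in WT. Erythroid and platelet genes summed to 1005, 858 and 1063 RPKM in B-KO and to 556, 1266 and 796.5 RPKM in WT. NK cell genes summed to 97.5, 218 and 151 RPKM in B-KO and to 109.9, 85.5 and 235 RPKM in WT. C1qa, a complement gene of macrophages, was at 116, 51.5 and 6.65 RPKM in B-KO and at 8.60, 3.86 and 41.6 RPKM in WT. Summed over the macrophage and phagocyte list, 30 genes gave 4509, 7722 and 3520 RPKM in B-KO and 2694, 3337 and 5548 RPKM in WT, with Vsig4 and Clec4f at or near 0 in all 6. Most of this sum is Apoe, a lipoprotein gene, at 2883, 6016 and 2550 RPKM in B-KO and 2027, 2277 and 4132 RPKM in WT. Of the 28 tested, 23 had a positive log2 fold change, with a median of 0.81. The median was 0.37 with the Y-linked covariate, 0.53 within libraries with Y-linked RNA and 0.20 within those without. Mpeg1, Emr1 and Timd4 were the 3 at an unadjusted p under 0.05, and leaving out B-KO replicate 3 gave 19 and WT replicate 3 gave 21, while B-KO replicate 2, WT replicate 1 or WT replicate 2 gave 1. Stromal genes summed to 312, 279 and 185 RPKM in B-KO and to 161, 164 and 217 RPKM in WT, of which Pecam1, an adhesion molecule gene of endothelial and blood cells, makes up most. Col1a1, Col3a1, Ccl19 and Ccl21a were at or near 0. Of the 8 stromal genes tested, 4 were higher at an unadjusted p under 0.05 in limma (50%, against 4.09% of all genes tested). They are Pecam1, Madcam1, Clu and Mfge8, and the last, a gene of follicular dendritic cells and macrophages, was at 36.7, 25.1 and 13.8 RPKM in B-KO and 15.3, 13.5 and 15.1 RPKM in WT. The 4 became 0 when B-KO replicate 2 was left out and 1 for B-KO replicate 1, WT replicate 1 or WT replicate 2. Cd3e, a subunit gene of the T cell receptor complex, did not exceed 2.87 RPKM in B-KO or 2.60 RPKM in WT. Some other genes of the T cell list were higher. Lck was at 349 to 691 RPKM in the 6 GC libraries. Ctla4 was at 258 RPKM in B-KO replicate 2 and at 81.2 RPKM in WT replicate 3. In the other GC libraries Ctla4 was at most 16.3 RPKM. Cd3g and Pdcd1 also peaked in B-KO replicate 2, at 14.2 and 10.4 RPKM. In bulk RNA, fewer cells of a type and less RNA per cell cannot be told apart.

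No gene passed in B-KO against WT GC B cells. limma on log2(RPKM + 1) called 0 of 13167 genes (0%) at an adjusted p under 0.05, the smallest adjusted p being 0.183, and limma voom on recovered reads also called 0. At an unadjusted p under 0.05, 538 genes (4.09%) were higher and 206 (1.56%) were lower in B-KO by limma, and 476 and 240 by voom. The split between directions depended on scaling: it was 419 higher and 328 lower after median-of-ratios rescaling, and 360 higher and 398 lower after quantile normalization. Leaving out WT replicate 1 gave 319 higher and 129 lower genes, B-KO replicate 3 gave 937 and 339, and WT replicate 3 gave 1078 and 328. All 3 B-KO libraries lay above all 3 WT libraries for 812 genes (6.17%) and below them for 424 (3.22%). The log2 fold change was positive for 7740 genes (58.8%), with a median of 0.03. These shares are the background for the members of each gene group below. Log2 fold changes are on the log2(RPKM + 1) scale, which understates those of genes at low level, and ± gives the standard error of the fit.

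Genes induced by interferon led the higher genes by p. Of the 12 genes with the smallest p and a positive log2 fold change, Gm12250, Igtp and Irgm2 encode immunity-related GTPases, Ifi27 a mitochondrial protein induced by type I interferon, and Tapbpl a peptide editor of MHC class I. Gimap5 and Gimap7 belong to a GTPase family of lymphocytes. Gm12250 was at 33.6, 39.7 and 26.0 RPKM in B-KO and at 11.7, 17.1 and 15.5 RPKM in WT, a log2 fold change of 1.11 ± 0.16, with an adjusted p of 0.183 in limma. Igtp was at 110.3, 125 and 85.1 RPKM in B-KO and at 43.2, 55.8 and 62.5 RPKM in WT (0.97 ± 0.16). For both genes the lowest B-KO library, replicate 3, was above the highest WT library. Irgm2 was at 58.1, 50.9 and 51.9 RPKM in B-KO and at 34.6, 38.4 and 29.9 RPKM in WT (0.64 ± 0.11). Ifi27 was at 464, 419.5 and 306 RPKM in B-KO and at 229, 249.9 and 214 RPKM in WT (0.76 ± 0.14). Neither gene overlapped between the groups, and Irgm2 differed little among the B-KO libraries. Gimap7 was at 305, 389.9 and 271 RPKM in B-KO and at 176, 188 and 223 RPKM in WT (0.71 ± 0.13), and Gimap5 had a log2 fold change of 0.38 ± 0.07. Without B-KO replicate 3 limma called Gm12250 and Ifi27, and with array quality weights it called 4 genes, Gm12250, Igtp and Gimap7 among them.

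Further genes of these 12 are not on the interferon lists. Mrpl30, which encodes a protein of the mitochondrial ribosome, was at 461, 442 and 424 RPKM in B-KO and at 302, 291 and 291 RPKM in WT (0.58 ± 0.10, limma adjusted p = 0.183). The spread inside either group was small beside the gap between them. Slc43a1, an amino acid transporter gene, was at 77.6, 73.8 and 59.2 RPKM in B-KO and at 41.4, 39.4 and 35.2 RPKM in WT (0.84 ± 0.14). Slc10a3, a solute carrier gene, and Gm15987, a long noncoding RNA gene, had log2 fold changes of 0.48 ± 0.08 and 0.62 ± 0.10. All had 3 B-KO libraries above 3 WT libraries. The rule for naming genes chose these 12 by p, so their not overlapping is no further evidence.

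**Figure D1:**
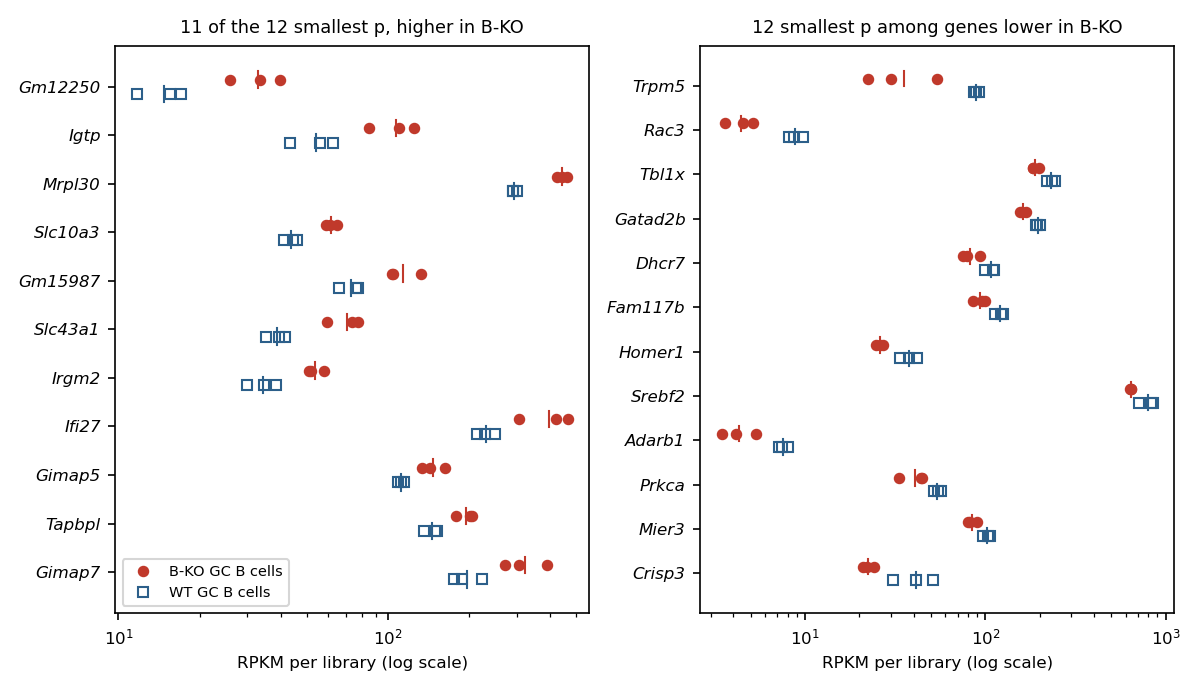
RPKM of each GC B cell library (log axis) for 11 of the 12 genes of smallest p that were higher (left) and the 12 that were lower (right) in B-KO, with filled circles for B-KO, open squares for WT and a tick at each group mean. The groups do not overlap for any of these genes. Of the 12 lower genes, Trpm5 has the log2 fold change farthest from 0, with B-KO at 22.4 to 53.7 and WT at 86.8 to 91.9 RPKM.

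Among the 12 genes of smallest p with a negative log2 fold change, Trpm5, which encodes a cation channel known from taste cells, was at 22.4, 53.7 and 29.9 RPKM in B-KO and at 86.8, 91.9 and 88.5 RPKM in WT (-1.40 ± 0.28, limma adjusted p = 0.264). The 3 WT libraries lay close together and the B-KO libraries were spread below them. In WT mice Trpm5 is a gene of GC rather than naive B cells, with a log2 difference of 3.57 between WT GC and WT naive libraries. Srebf2, the transcription factor of cholesterol synthesis, was at 640.0, 633 and 644 RPKM in B-KO and at 845, 712 and 827 RPKM in WT (-0.31 ± 0.08). Dhcr7, which encodes the reductase of the last step of cholesterol synthesis, was at 75.4, 79.0 and 92.8 RPKM in B-KO and at 110.2, 99.7 and 112 RPKM in WT (-0.38 ± 0.09). Rac3, a small GTPase gene at low level, had 4.49, 5.16 and 3.58 RPKM in B-KO and 8.12, 9.72 and 8.65 RPKM in WT (-0.87 ± 0.20). Tbl1x and Gatad2b, which encode subunits of corepressor complexes, had log2 fold changes of -0.30 ± 0.07 and -0.28 ± 0.07. Homer1 (a synaptic scaffold gene), Adarb1 (an RNA editing deaminase gene) and Prkca (protein kinase C alpha) had -0.52, -0.70 and -0.42. Fam117b, Mier3 and Crisp3 complete the list, at -0.36, -0.28 and -0.82.

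By size of the change rather than p, Cxcl10 had the largest positive log2 fold change among genes with at least 5 RPKM whose groups did not overlap. Cxcl10, a chemokine gene induced by interferon gamma, was at 10.8, 24.1 and 11.9 RPKM in B-KO and at 3.18, 2.99 and 6.43 RPKM in WT (1.65 ± 0.40). Cxcr3, which encodes its receptor, was at 94.7, 82.4 and 46.1 RPKM in B-KO and at 31.1, 19.3 and 35.8 RPKM in WT (1.32 ± 0.40). The genes of this paragraph were chosen because their groups did not overlap. That ligand and receptor were both higher in every B-KO library is therefore no further evidence. Itgax (CD11c, an integrin of dendritic cells and of age-associated B cells) was at 11.1, 27.3 and 12.7 RPKM in B-KO and at 5.29, 3.498 and 7.79 RPKM in WT (1.41 ± 0.47). Usp18, which encodes a protease that removes ISG15 from proteins, was at 56.8, 60.2 and 29.7 RPKM in B-KO and at 15.8, 15.04 and 27.2 RPKM in WT (1.28 ± 0.33). The B-KO replicate 3 value of Usp18 exceeded WT replicate 3 by little. Prm1 and Aire, the second a gene of central tolerance, were at low level with 1.11 and 1.10, and 4930515G16Rik followed. On the lower side, genes not yet given were Gm5741 (-1.31 ± 0.47), the histone gene Hist1h2bj (-1.01 ± 0.33), Ndrg1 (-0.86 ± 0.31), Eya1 (-0.79 ± 0.23) and Vmn2r96 (-0.75 ± 0.23). None of the genes in this paragraph passed, their adjusted p in limma being 0.510 or more.

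As a list, interferon gamma-inducible GTPases lay higher in GC B cells of B-KO mice. All 18 tested of 20 listed genes had a positive log2 fold change, with a median of 0.67 against 0.03 over all genes tested. At an unadjusted p under 0.05, 13 were higher (72.2% of the 18, against 4.09% of all genes) and 0 were lower. For 11 the B-KO libraries lay above all WT libraries (61.1%, against 6.17% of all genes). None passed over all genes. The sign of all 18 was kept after median-of-ratios rescaling and quantile normalization (medians 0.65 and 0.62). The list was written with earlier results of these data known, so the tally is a description. Its summed level was 1139, 1362 and 916 RPKM in B-KO and 712, 765 and 873 RPKM in WT, so each B-KO library exceeded each WT library. The highest library was B-KO replicate 2, and B-KO replicate 3 exceeded WT replicate 3 by little. The median was 0.58 with the Y-linked covariate. It was 0.71 between B-KO replicates 1 and 2 and WT replicate 3, which hold Y-linked RNA. Between B-KO replicate 3 and WT replicates 1 and 2, which do not, it was 0.49. Leaving out any 1 library gave a median of 0.59 to 0.89 and 11 to 14 genes at an unadjusted p under 0.05.

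These GTPases attack the vacuoles of intracellular pathogens, and their families were described in turn. In the immunity-related family, Ifi47 was at 273, 354 and 233 RPKM in B-KO and at 178, 205 and 193 RPKM in WT (0.56 ± 0.17). Tgtp2 was at 8.55, 10.9 and 6.09 RPKM in B-KO and at 3.09, 3.59 and 4.21 RPKM in WT (1.01 ± 0.26). Iigp1, the effector that disrupts the vacuole membrane, was at 6.92, 9.82 and 4.96 RPKM in B-KO and at 0.986, 2.23 and 3.02 RPKM in WT (1.44 ± 0.52). These 3 genes had no overlap between groups. Irgm1, a regulator that guards the cell's own membranes, was at 108, 171 and 82.9 RPKM in B-KO and at 58.6, 60.0 and 111 RPKM in WT (0.65 ± 0.26), and here WT replicate 3 lay above B-KO replicates 1 and 3. Among the guanylate-binding proteins, Gbp2 was at 60.6, 69.8 and 40.0 RPKM in B-KO and at 27.99, 29.9 and 37.4 RPKM in WT (0.79 ± 0.19). Gbp3 was at 144, 136 and 107 RPKM in B-KO and at 90.0, 91.8 and 98.6 RPKM in WT (0.45 ± 0.11). Gbp5, Gbp6 and Gbp7 had log2 fold changes of 0.68, 1.004 and 0.79, while the genes with the smallest positive values, Gbp4 (0.23 ± 0.10) and Gbp9 (0.06 ± 0.14), overlapped between groups. The sign of Gbp9 turned with the Y-linked covariate (-0.02). Gvin1, a very large inducible GTPase gene, was at 2.80, 4.996 and 2.43 RPKM in B-KO and at 0.819, 1.31 and 1.88 RPKM in WT (0.90 ± 0.23). Several of these genes have near-identical copies (Tgtp1 and Tgtp2, and the Gbp genes of chromosome 5), between which reads can be split. Some lie on chromosome 11, as Mir146 does, at 5.49 Mb (Irgm1) and 14.8 Mb (Gm12250, Igtp and Irgm2) from it, while the Gbp genes lie on chromosomes 3 and 5.

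Promoters of this list were searched to describe its members. Its genes were listed as inducible by interferon gamma, so a high share of interferon motifs was set by that choice. The shares are thus no evidence on the change in B-KO. From 250 bases before to 50 after the start (RefSeq, GRCm38.p6), a pair of GAAA with 2 bases of any kind between them (a core of the interferon-stimulated response element, ISRE, TTTC on the other strand) and TTCNNNGAA (the gamma-activated site, GAS) were searched on both strands. ISRE letters were in 9 of 11 GTPase promoters (81.8%), against 327 of 9877 promoters of all genes tested (3.31%), and GAS letters were in 7 of 11 (63.6%), against 724 of 9877 (7.33%). The other tested GTPase genes of the 18 had no promoter sequence here. The 11 include the near-identical copies Tgtp1 and Tgtp2, and Gbp3 and Ifi47 held neither motif. In the antiviral list below, also chosen by response to interferon, the shares were 17 of 41 (41.5%) and 7 of 41 (17.1%). Of the 12 lower genes of smallest p, 12 had a promoter and 0 held either motif. At the low shares of all genes, 0 of 12 is no contrast. A match is a description and not a site. In the stretches below both motifs stand in capitals.
Gm12250 (chr11:58183742-58183816, plus strand): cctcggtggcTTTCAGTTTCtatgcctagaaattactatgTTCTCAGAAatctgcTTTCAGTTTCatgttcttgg
Igtp (chr11:58199501-58199541, plus strand): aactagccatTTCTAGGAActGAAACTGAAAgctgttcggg
Irgm2 (chr11:58214892-58214932, plus strand): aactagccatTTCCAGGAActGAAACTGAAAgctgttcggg
Tgtp2 (chr11:49064263-49064303, minus strand): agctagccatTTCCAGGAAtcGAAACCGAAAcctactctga
Gbp2 (chr3:142620594-142620623, plus strand): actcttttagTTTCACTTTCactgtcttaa
Gbp7 (chr3:142530220-142530302, plus strand): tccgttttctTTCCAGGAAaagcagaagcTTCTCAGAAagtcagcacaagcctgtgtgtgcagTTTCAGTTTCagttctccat
Irgm1 (chr11:48871425-48871460, minus strand): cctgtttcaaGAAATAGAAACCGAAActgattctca
Isg15 (chr4:156200865-156200906, minus strand): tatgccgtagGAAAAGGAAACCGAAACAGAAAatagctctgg
Igtp, Irgm2 and Tgtp2 carry a GAS followed at once by an ISRE, whereas the Isg15 and Irgm1 stretches hold overlapping ISRE matches and no GAS.

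Antiviral interferon-stimulated genes were also higher, with wider overlap between libraries. All 60 tested of 62 listed genes had a positive log2 fold change (median 0.60). At an unadjusted p under 0.05, 33 were higher (55%, against 4.09% of all genes) and 0 lower. There was no overlap between groups for 14 (23.3%, against 6.17% of all genes). Isg15, a ubiquitin-like modifier gene, was at 79.2, 91.0 and 39.8 RPKM in B-KO and at 28.5, 26.1 and 46.3 RPKM in WT (0.998 ± 0.31). Oas1a, which encodes a sensor of double-stranded RNA, was at 23.02, 26.1 and 8.71 RPKM in B-KO and at 5.39, 5.85 and 13.4 RPKM in WT (1.11 ± 0.39). In both genes WT replicate 3 exceeded B-KO replicate 3. Mx1, a GTPase gene that blocks influenza virus, was at 22.5, 46.3 and 11.7 RPKM in B-KO and at 5.32, 6.74 and 24.5 RPKM in WT (1.17 ± 0.56), with WT replicate 3 above B-KO replicates 1 and 3. Ifit3 had 1.17 ± 0.43 and Zbp1, a nucleic acid sensor gene, 0.83 ± 0.21. Ly6a, the gene of the surface protein Sca-1, was at 1005, 1403 and 805 RPKM in B-KO and at 469, 650.0 and 703 RPKM in WT (0.80 ± 0.18), without overlap. After quantile normalization 59 of the 60 were positive. The summed level was 13280, 15240 and 10860 RPKM in B-KO and 9363, 9593 and 11230 RPKM in WT, so that B-KO replicate 3 lay below WT replicate 3. The median was 0.40 with the Y-linked covariate, 0.39 within libraries with Y-linked RNA and 0.35 within those without. Markers of macrophages differed between libraries in a like way, with median log2 deviations of 1.17, 0.78 and -0.62 for B-KO and -0.72, -0.81 and 0.55 for WT, against 0.29, 0.75 and -0.10 for B-KO and -0.52, -0.33 and 0.06 for WT in the antiviral list. Within libraries without Y-linked RNA, where the macrophage deviations are nearest to each other, the medians were 0.35 for the antiviral genes, 0.49 for the GTPases and 0.20 for the macrophage list. The part of macrophage RNA in these lists was not tested further. The count at an unadjusted p under 0.05 was 16 when B-KO replicate 1 was left out, 12 for B-KO replicate 2, 11 for WT replicate 1 and 14 for WT replicate 2, whereas leaving out B-KO replicate 3 gave 45 and WT replicate 3 gave 42.

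MHC class I processing genes lay the same way. All 23 had a positive log2 fold change (median 0.35), against 58.8% of all genes. At an unadjusted p under 0.05, 16 were higher (69.6%, against 4.09% of all genes). There was no overlap for 10 (43.5%, against 6.17%). Psmb9, a subunit gene of the immunoproteasome, was at 1997, 1917 and 1802 RPKM in B-KO and at 1375, 1589 and 1372 RPKM in WT (0.40 ± 0.10). Tap1, which encodes a chain of the peptide transporter, was at 1003, 989 and 823 RPKM in B-KO and at 709, 700.5 and 788 RPKM in WT (0.35 ± 0.10). Both genes had every B-KO library above every WT library. B2m, the invariant chain of MHC class I, was at 9202, 13017 and 7762 RPKM in B-KO and at 4847, 5926 and 7907 RPKM in WT (0.68 ± 0.22), and WT replicate 3 lay just above B-KO replicate 3. H2-K1 and H2-D1, heavy chain genes that share much sequence, had 0.51 and 0.45. H2-Q7, a further such gene, was at 399, 687 and 286 RPKM in B-KO and at 161, 192 and 315 RPKM in WT, with overlap. After quantile normalization 22 of the 23 were positive. The list median was 0.28 with the Y-linked covariate, 0.33 within libraries with Y-linked RNA and 0.24 within those without. The count of 16 became 10 when B-KO replicate 2 was left out and 9 for WT replicate 1. MHC class II genes had 11 of 15 positive values and a median of 0.08, but 5 of 15 and a median of -0.03 with the Y-linked covariate.

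**Figure D2:**
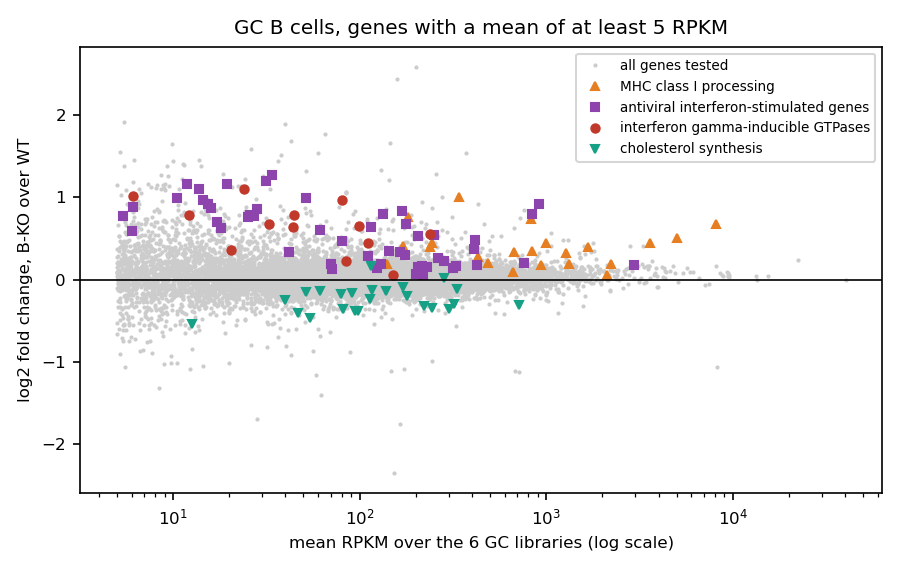
Log2 fold change of B-KO over WT GC B cells against the mean RPKM over the 6 GC libraries (log axis) for genes with a mean of at least 5 RPKM. Grey points are all genes tested, and symbols mark 4 gene lists. The GTPase, antiviral and MHC class I symbols lie at or above 0 at all levels, and 22 of 24 cholesterol synthesis genes tested lie below 0.

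Transcription factors of the pathway gave a mixed picture. Of 26 tested genes of IRF and STAT factors and interferon receptors, 18 had a positive log2 fold change (69.2%, against 58.8% of all genes). The median was 0.10. At an unadjusted p under 0.05, 5 were higher (19.2%, against 4.09% of all genes). Irf1, Irf9, Nlrc5 and Ifnar2 were among the 5. Irf1, an early target of interferon gamma, was at 509, 776 and 412 RPKM in B-KO and at 233, 261 and 391.9 RPKM in WT (0.92 ± 0.22). Irf9, the DNA-binding factor of ISREs in type I interferon signaling, was at 287, 357 and 248 RPKM in B-KO and at 185, 201.1 and 219 RPKM in WT (0.54 ± 0.13). Nlrc5, the transactivator gene of MHC class I, was at 217, 290.0 and 181 RPKM in B-KO and at 104, 133 and 166 RPKM in WT (0.76 ± 0.20). These 3 genes had no overlap between groups. In the whole list, 4 genes lay higher without overlap (15.4%, against 6.17% of all genes). Another 2 lay lower without overlap, as did 3.22% of all genes. Irf7, which amplifies the type I interferon response, was at 227, 269 and 151 RPKM in B-KO and at 99.9, 114 and 198 RPKM in WT (0.67 ± 0.31), with overlap. The median of this list was 0.00 with the Y-linked covariate, -0.08 within libraries with Y-linked RNA and 0.06 within those without. Leaving out B-KO replicate 2 gave a median of -0.02 with 11 of 26 positive, and leaving out B-KO replicate 3 gave 8 genes in place of 5.

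The interferon groups were far lower in GC than in naive B cells, and the genotypes as labelled differed less by median in naive cells. In WT, the median log2 difference of GC minus naive was -1.79 for the GTPases and -1.40 for the antiviral genes. The GTPases summed to 2753 to 2936 RPKM over the 6 naive libraries, above every GC library. B-KO against WT naive B cells gave medians of 0.15 for the GTPases, -0.08 for the antiviral genes and 0.13 for MHC class I. Here and in the test that follows, naive WT replicates 2 and 3 were taken as WT. Their Slu7 level, given above, was near that of B-KO, and what this does to the naive values was not tested. Each gene was also tested for a genotype effect that is not equal in the 2 cell types, and 0 of 13167 (0%) passed in limma, with 192 (1.46%) positive at an unadjusted p under 0.05 (voom called 0, with 197). Of these 192, 17 were among the 60 antiviral genes (28.3%), 7 among the 18 GTPases (38.9%) and 1 among the 23 MHC class I genes. Gm12250 was one of them, at 107, 110.1 and 104 RPKM in naive B-KO and 98.3, 89.6 and 109 RPKM in naive WT libraries, a difference of effects of 0.99 (limma adjusted p = 1). Cxcl10, by contrast, was at 10.7, 15.5 and 5.18 RPKM in naive B-KO and 2.70, 3.94 and 2.34 RPKM in naive WT libraries, so that it lay higher without overlap in both cell types.

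**Figure D3:**
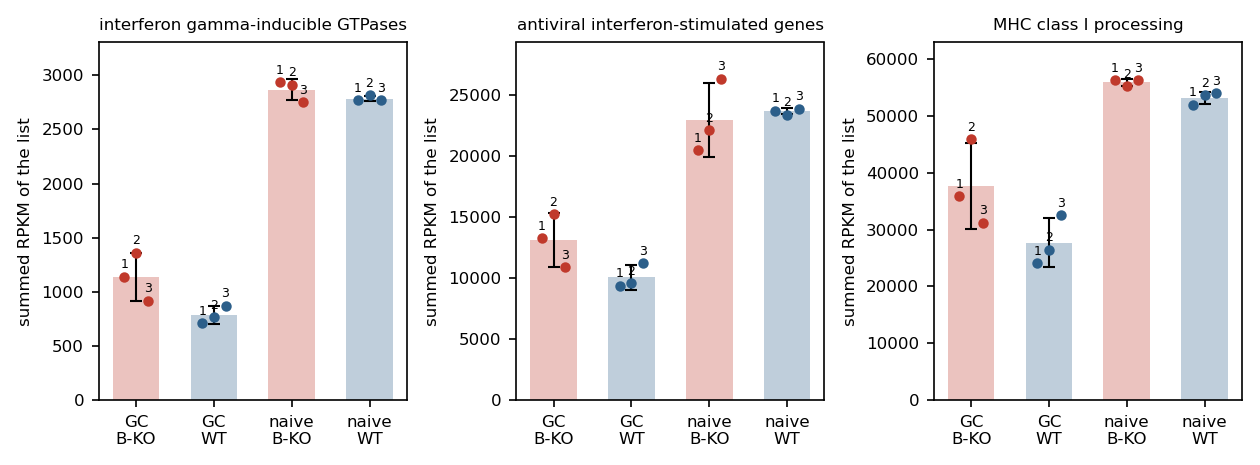
Summed RPKM of 3 gene lists in GC and naive B cells. Numbered points are libraries, bars are means of 3 libraries and error bars are SD. GTPases in GC cells sum to 916 to 1362 in B-KO and 712 to 873 in WT, against 2753 to 2936 in the 6 naive libraries.

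Memory B cell genes were higher on the whole, by an amount that depended on the libraries. Of 24 genes, 22 had a positive log2 fold change (median 0.53). At an unadjusted p under 0.05, 7 were higher (29.2%, against 4.09% of all genes) and 1 was lower (4.17%, against 1.56%). For 5 the B-KO libraries lay above all WT libraries (20.8%, against 6.17%). Cd38, which GC B cells of mice lose and memory cells regain, was at 235, 428 and 192 RPKM in B-KO and at 97.6, 118 and 231 RPKM in WT (0.95 ± 0.31), with WT replicate 3 within the B-KO range. Tbx21, the transcription factor gene T-bet of B cells exposed to interferon gamma, was at 62.8, 70.2 and 62.7 RPKM in B-KO and at 42.9, 23.7 and 42.6 RPKM in WT (0.87 ± 0.38), without overlap, and its log2 fold change in naive cells was 1.08. Fcrl5, an inhibitory receptor gene, was at 130.1, 122 and 52.4 RPKM in B-KO and at 40.0, 42.0 and 76.0 RPKM in WT (0.89 ± 0.32), with overlap. Cd80, a ligand gene of CD28, had 0.69 ± 0.25, and the lower gene was Bach2, a repressor gene that holds back plasma cell fate, with -0.21 ± 0.09. The median was 0.28 with the Y-linked covariate, 0.29 within libraries with Y-linked RNA and 0.34 within those without. Leaving out B-KO replicate 2 gave 2 genes in place of 7, WT replicate 1 gave 4, WT replicate 2 gave 3, B-KO replicate 3 gave 13 and WT replicate 3 gave 14. The macrophage sums given above were also higher in B-KO replicates 1 and 2 and WT replicate 3, and their part in the memory list was not tested.

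Genes of the GC program differed between libraries more than between genotypes. GC B cell identity genes had 8 of 36 positive values (median -0.08), dark zone genes 3 of 20 (-0.08), mitosis genes 3 of 38 (-0.07) and light zone genes 23 of 28 (0.03), with at most 1 gene per direction at an unadjusted p under 0.05 in each. Mitosis genes lay at median log2 deviations of 0.11, -0.53 and 0.28 for B-KO and 0.36, 0.37 and -0.63 for WT from the mean of the 6 libraries. The low libraries were therefore those with the highest medians of immediate early genes. The direction of these lists turned with the libraries compared. With the Y-linked covariate, 38 of 38 mitosis genes (median 0.17), 17 of 20 dark zone genes (0.15) and 7 of 28 light zone genes (-0.08) were positive. Within libraries with Y-linked RNA the medians were 0.41 for mitosis, 0.39 for the dark zone and -0.21 for the light zone, and within those without they were -0.10, -0.08 and 0.05. Immediate early genes had 29 of 32 positive values (median 0.23) with 0 genes at an unadjusted p under 0.05 in limma, but 5 of 32 (median -0.26) with the covariate and 2 of 32 (median -0.65) within libraries with Y-linked RNA. Leaving out 1 library gave them medians of -0.19 to 0.87, with 4 genes when B-KO replicate 3 was left out and 10 for WT replicate 3. Plasma cell genes had 21 of 24 positive values (median 0.19) with 0 genes, and 17 of 24 (median 0.13) with the covariate. Leaving out B-KO replicate 3 gave 5 plasma cell genes and WT replicate 3 gave 6. No direction is drawn from any of these lists.

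**Figure D4:**
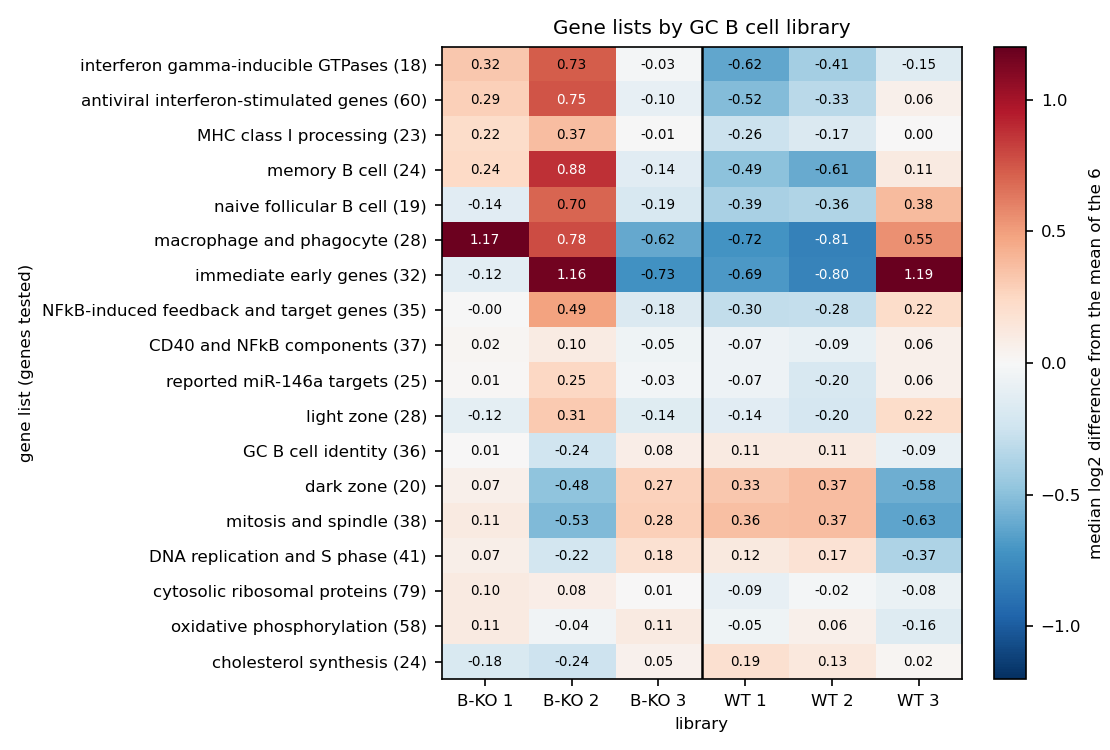
Median log2 deviation of each gene list (rows, with the number of genes tested) from the mean of the 6 GC libraries, in each B-KO and WT library (columns). The GTPase row is 0.32, 0.73 and -0.03 in the B-KO columns and -0.62, -0.41 and -0.15 in the WT columns, whereas the rows of immediate early and mitosis genes set B-KO replicate 2 and WT replicate 3 apart from the other libraries.

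Cholesterol synthesis genes lay lower in B-KO, with genes of this list among those of smallest p. Of 24 tested genes, 22 had a negative log2 fold change (median -0.24), 6 at an unadjusted p under 0.05 (25%, against 1.56% of all genes). There were 7 that lay lower without overlap, as did 3.22% of all genes. The 6 include Srebf2 and Dhcr7, given above, both without overlap. Cyp51, which encodes lanosterol demethylase, was at 231, 245 and 319 RPKM in B-KO and at 333, 342 and 334 RPKM in WT (-0.36 ± 0.13). Lss, the lanosterol synthase gene, was at 63.1, 67.9 and 84.4 RPKM in B-KO and at 101, 86.4 and 87.2 RPKM in WT (-0.35 ± 0.12). B-KO replicate 3 was nearest to WT in both. The median was -0.18 with the Y-linked covariate, -0.25 within libraries with Y-linked RNA and -0.09 within those without. In naive B cells it was 0.06. The 6 genes became 2 when B-KO replicate 1 was left out, 3 for B-KO replicate 2 or WT replicate 1, 4 for WT replicate 2, 11 for B-KO replicate 3 and 9 for WT replicate 3, and they were 10 after median-of-ratios rescaling and 9 after quantile normalization. In contrast to these genes, 74 of 79 cytosolic ribosomal protein genes had positive values (median 0.11), with 4 at an unadjusted p under 0.05 (5.06%). Of 58 oxidative phosphorylation genes 53 did (median 0.10), with 3 (5.17%). Both of these shares by p are near the 4.09% of all genes. Without overlap, 19 of the 79 (24.1%) and 8 of the 58 (13.8%) lay higher, against 6.17% of all genes, and 0 lay lower. After quantile normalization 61 and 46 were positive, with medians of 0.06 each, so these small shifts depended on scaling.

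CD40 and NFκB genes, which carry signals that select GC B cells, differed by small amounts at the RNA level. Of 37 components, 23 had a positive log2 fold change (62.2%, against 58.8% of all genes), with a median of 0.05. At an unadjusted p under 0.05, 3 were higher (8.11%, against 4.09% of all genes). With the Y-linked covariate the median was -0.00, with 18 of 37 positive and 1 gene. Leaving out 1 library gave 1 gene (B-KO replicate 2, WT replicate 1 or WT replicate 2) to 5 genes (WT replicate 3). Traf6, which encodes a ubiquitin ligase that CD40 recruits, was at 112, 122 and 105 RPKM in B-KO and at 103, 82.5 and 95.2 RPKM in WT (0.27 ± 0.09, limma adjusted p = 0.696). Chuk, which encodes IKKα, was at 232, 243 and 228 RPKM in B-KO and at 205, 208 and 219 RPKM in WT (0.15 ± 0.06). Neither gene overlapped between groups. Irak1 was at 293, 316 and 294 RPKM in B-KO and at 269, 241 and 281 RPKM in WT (0.19 ± 0.10), and Myd88, the adaptor gene above it, had 0.18 ± 0.08. Cd40 was at 389, 404 and 349 RPKM in B-KO and at 337, 329 and 373 RPKM in WT (0.14 ± 0.09), with overlap. Rel, the gene of c-Rel, was at 282, 663 and 291 RPKM in B-KO and at 336, 305 and 626 RPKM in WT (-0.08 ± 0.32). Its high libraries were B-KO replicate 2 and WT replicate 3, and its sign turned when B-KO replicate 1 or 3 or WT replicate 3 was left out. Relb was at 166, 219.7 and 161 RPKM in B-KO and at 179, 157 and 204 RPKM in WT (0.01 ± 0.13), with a sign that also turned with scaling. Genes induced by NFκB had 31 of 35 positive values, but a median of 0.09. It was -0.08 with the Y-linked covariate and -0.07 when either replicate 2 was left out.

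Reported targets of miR-146a were read as a list as well. Of 31 listed, 25 were tested, and 18 had a positive log2 fold change (72%, against 58.8% of all genes). The median was 0.07. At an unadjusted p under 0.05, 4 were higher (16%, against 4.09% of all genes) and 0 lower. There was no overlap for 5 (20%, against 6.17%). Traf6, Icos and Chuk were among the 4. Icos, a costimulatory receptor gene of T cells, was at only 1.37, 2.83 and 1.02 RPKM in B-KO and 0.535, 0.549 and 0.798 RPKM in WT. Of the 25 tested genes, 14 have a site in the longest 3′ UTR. The count of 4 became 10 when WT replicate 3 was left out, 7 for B-KO replicate 3 and 2 for B-KO replicate 2.

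Genes that carry a miR-146a site lay below all genes without one and above those with a long 3′ UTR, by small amounts. Of 514 genes with an 8mer, 56% had a positive log2 fold change (median 0.02), with 3.89% higher and 1.75% lower at an unadjusted p under 0.05. Genes with a 7mer-m8 (901 genes, 53.6% positive, median 0.01) and with a 7mer-A1 (898 genes, 55% positive, median 0.02) were alike. The 9480 genes without a site had 60.1% positive values and a median of 0.04, with 4.24% higher and 1.3% lower. Their 3′ UTRs were shorter, with a median of 866 bases against 2419 bases for genes with any site. Among genes without a site and with a 3′ UTR of at least 1500 bases (2867 genes, median length 2333 bases), 50.6% were positive, with a median of 0.00 and 2.72% higher, below each of the 3 site classes. After quantile normalization the medians were -0.02 for 8mer, -0.03 for 7mer-m8 and -0.01 for genes without a site, so their signs depended on scaling. The medians of all classes lay within a few hundredths of each other on the log2 scale.

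**Figure D5:**
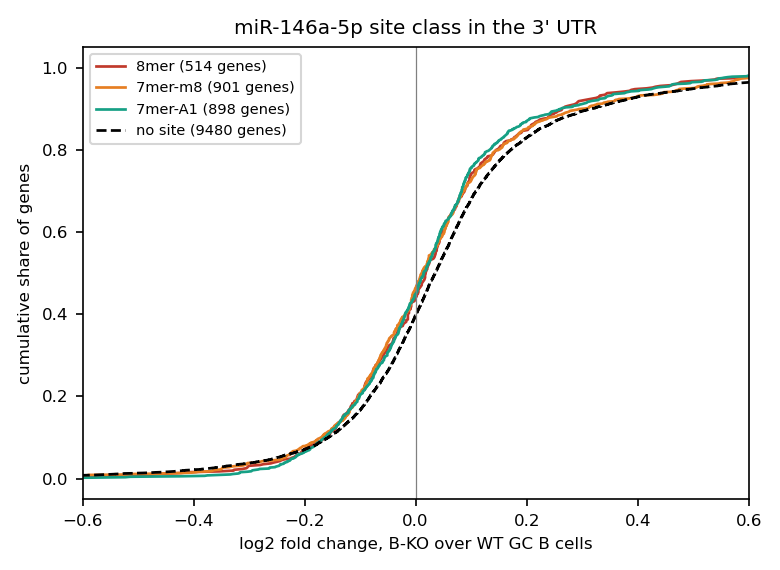
Cumulative share of genes by log2 fold change, B-KO over WT GC B cells, for 3 classes of miR-146a-5p site and for genes without a site (dashed). The axis is limited to -0.6 to 0.6. The 3 classes run left of the dashed line at the center, with medians of 0.01 to 0.02 against 0.04.

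Single site-bearing genes were named from the 100 of highest GC level in each class. Of those with a positive log2 fold change, the 5 of smallest p were taken, so their direction was set by this choice. At an unadjusted p under 0.05, 20 genes of the 8mer class were higher and 9 lower. For 7mer-m8 these were 33 and 25, and for 7mer-A1 26 and 22. Gimap4, with the 8mer printed above, was at 839, 1309 and 815 RPKM in B-KO and at 473, 516 and 625 RPKM in WT (0.85 ± 0.18, limma adjusted p = 0.321), without overlap. It belongs to the same GTPase family as Gimap5 and Gimap7. Gemin7, a gene of the complex that assembles splicing particles, was at 455, 466 and 455 RPKM in B-KO and at 391, 406 and 394 RPKM in WT (0.21 ± 0.07), also without overlap. Uqcrq, a subunit gene of respiratory complex III, had 0.27 ± 0.11, and Nt5c3b 0.19 ± 0.09. Among genes with a 7mer-m8, Mrpl30 was followed by H2-Q7 and by Ist1, a gene of membrane scission, which was at 438, 459 and 436 RPKM in B-KO and at 389, 391 and 391.9 RPKM in WT (0.18 ± 0.06). Among genes with a 7mer-A1, Rexo2, an RNA exonuclease gene of mitochondria, was at 339, 424 and 357 RPKM in B-KO and at 252, 299 and 279 RPKM in WT (0.43 ± 0.12). Txndc5, Ndfip1, Uqcrfs1 and Rnf114 had 0.26, 0.20, 0.15 and 0.15. No site-bearing gene passed over all genes.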

How the data were processed

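RNA was sequenced from 12 libraries (HiSeq 2500), 3 biological replicates per genotype and cell type, where replicate spread may include technical spread. The authors deposited 1 table of RPKM values per RefSeq transcript (mm10), made by trimming and masking reads, alignment with STAR 2.2.0c and exon counting with HOMER on both strands, scaled to 10000000 reads per library. Antisense and overlapping genes can therefore not be told apart, and reads of near-identical copies can be split. The 6 GC libraries held 27020010 to 39118224 recovered whole reads (tolerance 0.1 read, all checked values whole). Both mm9 and mm10 stand in the submitters' processing notes, and the header names mm10.

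From this table, 1 transcript per symbol of at least 200 bases was kept, and 37.6% of reads lay on further transcripts of the same symbols. limma 3.58.1 (R 4.3.3) was fitted to log2(RPKM + 1) of all 12 libraries, with 4 group means, an intensity trend and 8 residual degrees of freedom, over 13167 genes with at least 1 RPKM in 3 libraries, with Benjamini-Hochberg adjustment at 0.05, two-sided. It was tested on simulated data. An exact permutation test of 3 against 3 cannot go below p = 0.1. Named genes were, among those of at least 5 RPKM in GC libraries, 12 per direction by smallest p, 8 per direction by largest change without overlap, up to 5 per gene list, 6 per library farthest from their group, 10 named regulators, and 5 site-bearing genes per class. Site-bearing genes were named only if their log2 fold change was positive. Further GTPase, antiviral and IRF genes were named after their values were seen. The members, the gene lists (29 lists) and the tests were chosen with earlier results of these data known. Alternatives covered 22 settings (pseudocount, filters, scaling, voom, weights, covariate, block, left-out libraries), 3 of them added after seeing the data. Recovered reads served only limma voom, an alternative. Some genes that this rule names are not reported here.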

Additional observations from a re-analysis of the deposited data

How the results depend on the processing

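The call of 0 genes between B-KO and WT GC B cells held in most of 22 settings. It was 4 with array quality weights, 1 (Mir24-1, lower) with all transcript lengths, and 0 to 2 when 1 library was left out (Rpph1 without B-KO replicate 1, Gm12250 and Ifi27 without B-KO replicate 3). The count of genes whose genotype effect differed between GC and naive B cells was 3 with all transcript lengths (Mir24-1, Mir6345 and Mir7074). Same-numbered GC libraries had deviation correlations of 0.05, -0.62 and -0.80. B-KO replicate 2 and WT replicate 3 stand apart within their groups, which shapes these values. They therefore cannot tell whether same-numbered libraries share more than a number. With the replicate block 0 genes passed, with 468 higher and 154 lower at an unadjusted p under 0.05. Medians of gene lists moved within libraries with Y-linked RNA (dark zone 0.394, IRF and STAT factors -0.078, T cell -0.249, NK cell -1.049), within the others (cholesterol synthesis -0.088, stromal 0.074, NK cell 0.717), with at least 10 RPKM in 3 libraries (stromal 0.550) and after quantile normalization (ribosomal proteins 0.056). For seed classes, 8mer genes were at -0.022 after quantile normalization. Genes with a 7mer-m8 were at -0.018 after median-of-ratios rescaling and -0.031 after quantile normalization. Genes with a 7mer-A1 were at -0.014, -0.025 and, with weights, -0.002, at -0.000 without B-KO replicate 2 and WT replicate 3, and at -0.000 to 0.020 without 1 library. Genes without a site were at 0.007, -0.006 and, with weights, 0.027, at 0.045 with the Y-linked covariate, 0.048 within libraries with Y-linked RNA, 0.027 without B-KO replicate 2 and WT replicate 3, and 0.022 to 0.045 without 1 library. Signs reversed for Cr2 (0.048 with weights, 0.089 within libraries with Y-linked RNA, 0.111 without B-KO replicate 2 and WT replicate 3, -0.449 to 0.134 without 1), Rel (-0.483 to 0.241 without 1), Relb (-0.020 and -0.019 under both rescalings, -0.078 with the covariate, -0.098 and -0.058 within libraries with and without Y-linked RNA, -0.036 without both, -0.131 to 0.105 without 1) and Gbp9 (-0.020 with the covariate, -0.076 within libraries without Y-linked RNA, -0.034 to 0.152 without 1). The causes were not tested. With 3 libraries per genotype that differ by Y-linked RNA and immediate early genes, differences of single genes near the threshold cannot be settled.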
